A study of Mus musculus with 4 samples.

Results

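The AP-1 subunits measured here were the 4 *Fos* family genes *Fos*, *Fosb*, *Fosl1* and *Fosl2*, the 3 *Jun* family genes *Jun*, *Junb* and *Jund*, and *Batf3*. They were chosen by gene name, as all probes whose annotation on the array carries 1 of these names. This gave 9 probes of 39429, for 8 genes of 30175 gene names, since *Fosl2* had 2 probes and each of the other 7 genes had 1. 7 of the 9 probes were well above background on all 4 arrays by the flag of the scanner software. *Fos* was so at 4 h only, and *Batf3* on no array.

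RNA came from NIH-3T3:Per2-Luc, a mouse fibroblast line with a luciferase reporter driven by the *Per2* promoter. It was hybridized to 4 one-color Agilent arrays on 1 slide, 1 array for each condition. The cells of 3 arrays had been given a cOS-pulse, 5 mM H2O2 for 10 min, and were taken 4 h, 20 h or 32 h after it. The control cells had fresh medium without H2O2 (0 mM), and their label gives 4 h. All conditions thus share the same line and reporter, and all 3 time points share 1 control array, so that time in culture and the pulse cannot be told apart at 20 h and 32 h. With 1 array per condition there was no test and there are no p-values, and the precision is limited by that number of arrays.

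AP-1 is a family of dimeric transcription factors that bind DNA through a basic region and pair through a leucine zipper. Jun proteins can pair with each other or with Fos proteins, whereas Fos proteins need a partner. In fibroblasts, serum, growth factors and oxidants act through MAP kinases on AP-1, and *Fos*, *Fosb* and *Junb* are known as immediate early genes, whose transcripts appear within minutes and decay quickly. Fewer cells with a transcript and less of it per cell cannot be told apart in such bulk RNA.

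The promoters of *Fos* and *Fosb*, the members that exceeded the control 2-fold at 4 h, and of *Jun*, the partner of Fos proteins, are shown for the DNA around their start sites. Each run holds the 250 bases before the start site, from RefSeq on GRCm38.p6, read 5′ to 3′ on the strand of the gene, and capitals mark TGACG and TATAAA. The *Fos* window is chr12:85473640-85473889 on the plus strand, the *Fosb* window chr7:19310046-19310295 on the minus strand and the *Jun* window chr4:95052223-95052472 on the minus strand.
Fos: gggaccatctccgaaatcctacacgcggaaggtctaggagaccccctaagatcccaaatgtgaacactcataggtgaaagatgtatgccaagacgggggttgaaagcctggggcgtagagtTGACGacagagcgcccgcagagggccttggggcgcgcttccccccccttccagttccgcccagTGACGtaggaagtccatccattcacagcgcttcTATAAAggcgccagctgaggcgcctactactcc
Fosb: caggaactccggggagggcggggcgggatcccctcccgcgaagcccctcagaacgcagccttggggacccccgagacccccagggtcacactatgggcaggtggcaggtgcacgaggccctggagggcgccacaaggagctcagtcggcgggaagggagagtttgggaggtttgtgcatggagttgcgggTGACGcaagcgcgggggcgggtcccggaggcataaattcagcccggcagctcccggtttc
Jun: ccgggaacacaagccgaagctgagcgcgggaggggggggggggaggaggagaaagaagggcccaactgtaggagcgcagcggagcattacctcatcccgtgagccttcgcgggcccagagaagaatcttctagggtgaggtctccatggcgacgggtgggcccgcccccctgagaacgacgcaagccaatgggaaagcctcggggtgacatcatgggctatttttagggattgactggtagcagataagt

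RefSeq entries matched 7 of the 8 genes, all but *Fosl1*. The AP-1 site TGACTCA, the cAMP response element TGACGTCA and the CArG box, which serum response factor binds, were searched on both strands. None of the 7 windows held a match to any of them. Bases outside the windows and variants of these sites were not searched. The absence of a match thus does not show that a promoter lacks such elements. Of 32851 promoters of the same length, 4.46% held TGACTCA, 1.55% TGACGTCA and 1.47% a CArG box. TGACG, which lies within TGACGTCA, and TATAAA were added to the search after the sequences had been seen. TGACG stood in *Fos* at -129 to -125 and -66 to -62, in *Fosb* at -60 to -56 and in *Junb* at -106 to -102, against 17.8% of all promoters. TATAAA stood in *Fos* at -33 to -28, against 12.4%. These matches describe the letters of the windows, and the arrays did not measure binding to them.

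The probes themselves are 60 bases long. The first 30 bases of those that the results below turn on, the *Fos* and *Fosb* probes and the pair for *Fosl2*, are given here.
Fos: ggactttattttccagtagatagaaatcaa
Fosb: actgccgaccacaattcattgactccatag
Fosl2 (5-prime probe): gattgctgagctgcagaaggagaaggagaa
Fosl2 (3-prime probe): gctatggaggaaagaacatattaaaaactt

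The array annotation (mm9) places the *Fos* probe at chr12:86817900-86817959, *Fosb* at chr7:19888168-19888227, *Fosl1* at chr19:5455496-5455555 and *Jun* at chr4:94716928-94716987. *Junb* lies at chr8:87501881-87501940, *Jund* at chr8:73224436-73224495 and *Batf3* at chr1:192932528-192932587. The *Fosl2* probes lie at chr5:32455088-32455147 and chr5:32460076-32460135, starting at bases 738 and 5726 of the transcript, and are called the 5-prime and the 3-prime probe here. The other probes start at base 1773 (*Fos*), 3593 (*Fosb*), 1262 (*Fosl1*), 1926 (*Jun*), 707 (*Junb*), 2798 (*Jund*) and 417 (*Batf3*) of theirs.

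Levels are given as scaled log2 signals, that is, the log2 of the background-subtracted intensity minus the 75th percentile of the array, so that 0 is the level of that percentile. A probe's levels are compared between arrays only, never with another probe's. Before scaling, this percentile lay -0.28, 0.33 and 0.18 from the control at 4 h, 20 h and 32 h. The 4 arrays had 20762 to 23295 probes well above background, most of them at 4 h, and no spot was saturated. All 12 fibroblast markers examined, among them *Col1a1*, *Vim* and *Pdgfra*, were well above background on the 4 arrays. Of markers of other cell types, 2 of 4 were so for macrophages (*Cd68*, *Csf1r*), 1 of 4 for epithelium (*Krt8*), 2 or 3 of 3 for endothelium and for neurons, among them *Kdr* and *Snap25*, and 0 of 3 for muscle. *Ptprc*, which marks all leukocytes, and *Epcam* and *Cdh1*, which mark epithelium, were so on none of the arrays. The part of such markers in the values below was not tested.

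**Figure D1:**
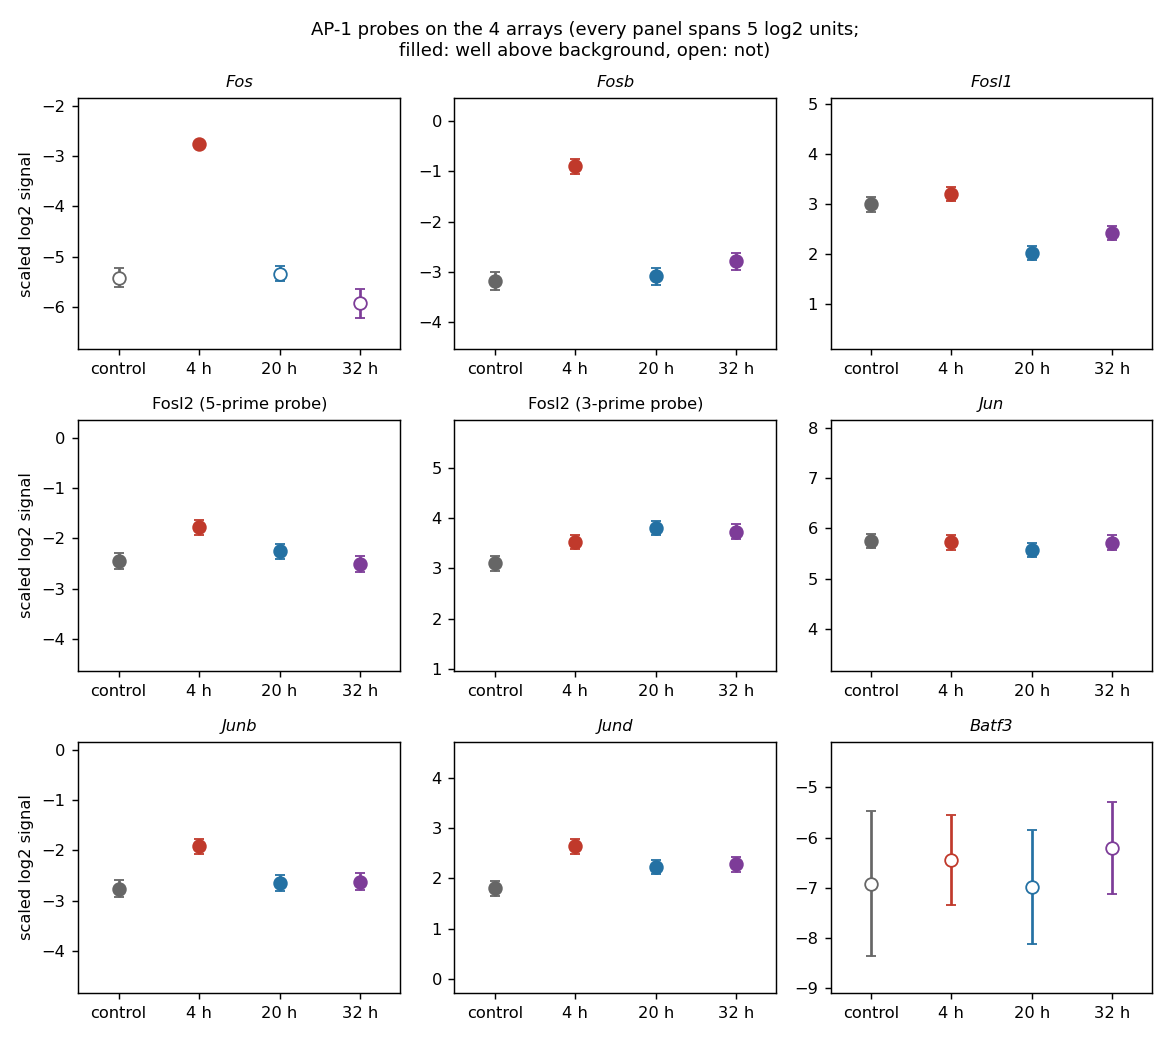
Scaled log2 signal of the 9 AP-1 probes (y axis, each panel spanning 5 log2 units) on the control array and the arrays 4 h, 20 h and 32 h after cOS-pulse (x axis). Points are single arrays, bars are the spot error of the scanner software, and open points were not well above background. *Fos* and *Fosb* stand apart at 4 h, *Fosl1* is lowest at 20 h, and *Jun* spans 0.17 over the 4 arrays.

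*Fos*, the founding member of the family and the classical immediate early gene, was well above background at 4 h and at no other time. Its scaled log2 level was -5.42 in the control, -2.75 at 4 h, -5.34 at 20 h and -5.93 at 32 h. Only the 4 h level was well above background, so the other 3 levels have no order among them and no ratio was taken at 20 h or 32 h. Against the lowest control signal that was well above background, the 4 h signal of *Fos* was at least 4.02-fold higher, a log2 bound of 2.01 that became 1.14 with normexp background correction. The probe was printed 10 times on each array, which gave a check within the array.

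The *Fos* spots had intensities of 18.9 to 34.6 in the control (median 27.5), 123 to 144 at 4 h (median 136), 19.4 to 52.1 at 20 h (median 33.0) and 11.6 to 32.3 at 32 h (median 21.8). The 4 h spots overlapped with none of the others, and they came from places between rows 26 and 468 of the array. All 10 spots were well above background at 4 h, 2 at 20 h and 0 in the control and at 32 h. By the less strict flag of the software, for a positive and significant signal, 9 of the 10 spots passed at 32 h and all 10 on each of the other arrays, and the 4 h log2 ratio by that flag was 2.66. The SD of the log2 signal over the spots was 0.078 at 4 h and 0.32 to 0.47 on the other arrays. The spots share 1 RNA sample and 1 hybridization, so their spread holds no difference between cultures.

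**Figure D2:**
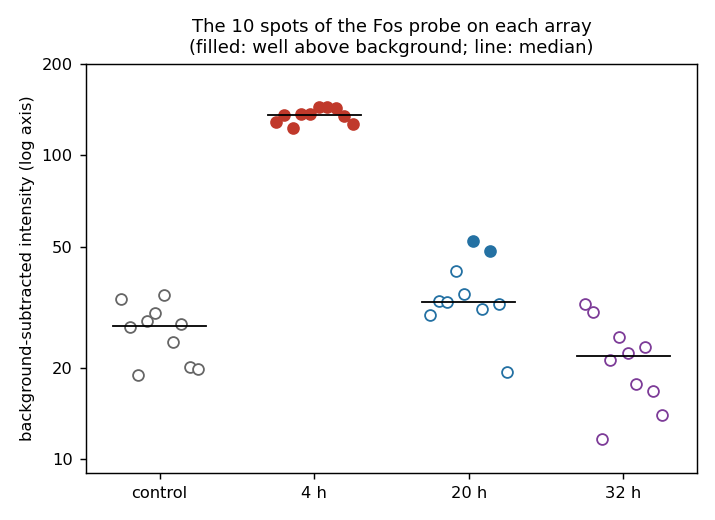
Background-subtracted intensity (y axis, log scale) of the 10 spots of the *Fos* probe on each of the 4 arrays (x axis). Filled spots were well above background and lines are medians. The 4 h spots lie between 123 and 144, above the highest spot of any other array, 52.1.

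*Fosb*, whose protein activates transcription as Fos does, had the largest measured ratio of the members at 4 h. Its scaled log2 level was -3.18 in the control, -0.90 at 4 h, -3.09 at 20 h and -2.79 at 32 h, all well above background. At 4 h this was a log2 ratio of 2.29 ± 0.23 over the control, or 4.87-fold, where the error combines those that the scanner software gives for each spot and leaves out differences between cultures. It was 0.091 ± 0.25 at 20 h and 0.40 ± 0.25 at 32 h. The step from 4 h down to the next level, that of 32 h, was 1.89, and the remaining 3 levels did not differ by more than 2 times the spot error. The probe thus stood apart on 1 array, as *Fos* did. Without scaling, however, its 32 h ratio over the control was 0.58 and beyond that limit. Its 4 h ratio was lowest with normexp correction, at 1.81.

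*Fosl1* encodes Fra-1, a Fos protein without the strong activation domain of Fos, and its gene is itself known to be switched on by AP-1. It was the member that lay lowest against the control at the late times. Its scaled log2 level was 2.99 in the control, 3.19 at 4 h, 2.02 at 20 h and 2.42 at 32 h. The log2 ratio over the control was 0.21 ± 0.20 at 4 h, -0.97 ± 0.20 at 20 h and -0.57 ± 0.20 at 32 h. The 4 h ratio was within 2 times the spot error and turned negative with median, quantile or spike-in scaling and without scaling. Both late ratios were beyond 2 times the spot error, that of 32 h not so without scaling, and stayed negative under all 5 other scalings, at -1.01 to -0.64 at 20 h and -0.60 to -0.39 at 32 h.

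*Fosl2* encodes Fra-2, the relative of Fra-1, and it was read by a pair of probes. The 5-prime probe had scaled log2 levels of -2.45 in the control, -1.78 at 4 h, -2.25 at 20 h and -2.51 at 32 h, and was highest at 4 h. The 3-prime probe, 4988 bases downstream, had 3.10, 3.53, 3.81 and 3.73, and was lowest in the control. At 4 h they had log2 ratios of 0.67 ± 0.22 and 0.43 ± 0.20 over the control. Over the 5 other scalings these lay at 0.27 to 0.57 and at 0.03 to 0.30, and were within 2 times the spot error with median, spike-in or no scaling for the 5-prime probe and with all 5 for the 3-prime probe. At 20 h the 5-prime probe had 0.20 ± 0.22 and the 3-prime probe 0.71 ± 0.20, and at 32 h they had -0.06 ± 0.22 and 0.63 ± 0.20.

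The log2 ratio of the 3-prime probe minus that of the 5-prime probe was -0.24 ± 0.30 at 4 h, 0.51 ± 0.30 at 20 h and 0.69 ± 0.30 at 32 h. Only the difference at 32 h exceeded 2 times its spot error. With normexp background correction it was 0.59 and within that limit, while that at 20 h was 0.62 and beyond it. Scaling moves both probes alike except under quantile normalization. Of the 399 probes printed 10 times, 228 at 4 h, 228 at 20 h and 227 at 32 h were well above background on both arrays. Their median SD of single-spot log2 ratios was 0.055, 0.049 and 0.051, below the error the scanner software gives for 1 spot. The 95th percentile of that SD was 0.24, 0.19 and 0.18, so the median does not speak for each probe. Whether the probes report different transcript forms of *Fosl2* was not tested.

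*Jun* encodes the partner that most Fos proteins use, and its protein is activated by phosphorylation through JNK. The scaled log2 level was 5.74 in the control, 5.72 at 4 h, 5.57 at 20 h and 5.71 at 32 h, a range of 0.17. The log2 ratio over the control was -0.02 ± 0.20 at 4 h, -0.17 ± 0.20 at 20 h and -0.03 ± 0.20 at 32 h. No step in this order was beyond 2 times the spot error. Under the 5 other scalings the 4 h ratio lay between -0.42 and -0.15, and with spike-in scaling it was beyond 2 times the spot error. The 20 h ratio turned positive without scaling, as the 32 h ratio did without scaling and with quantile normalization.

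*Junb*, an immediate early member of the *Jun* family with weaker activating power than *Jun*, was highest at 4 h. The scaled log2 level was -2.76 in the control, -1.92 at 4 h, -2.64 at 20 h and -2.63 at 32 h. The 4 h log2 ratio of 0.84 ± 0.23 was 1.79-fold over the control, below the 2-fold threshold. At 20 h and 32 h it was 0.12 ± 0.23 and 0.13 ± 0.24. The levels of the control, 20 h and 32 h did not differ by more than 2 times the spot error. Over the 5 other scalings the 4 h ratio lay at 0.45 to 0.74, within 2 times the spot error with spike-in scaling.

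*Jund*, the *Jun* family gene that is expressed in most resting cells, was above the control at all 3 times. The scaled log2 level was 1.80 in the control, 2.64 at 4 h, 2.23 at 20 h and 2.28 at 32 h. The log2 ratio was 0.84 ± 0.20 at 4 h (1.79-fold), 0.42 ± 0.20 at 20 h and 0.48 ± 0.20 at 32 h. All 3 ratios were beyond 2 times the spot error and remained positive under the 5 other scalings, at 0.44 to 0.71 at 4 h. Of the steps between adjacent levels, only that from the control to the next, 0.42, was beyond 2 times the spot error. The step from 4 h down to 32 h was 0.36, and the 4 h level lay further above that of 20 h. The 3 levels after the pulse were thus not alike.

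*Batf3* encodes a small partner of Jun proteins that is needed by a class of dendritic cells. Its scaled log2 level was -6.92 in the control, -6.45 at 4 h, -6.99 at 20 h and -6.20 at 32 h. None of the arrays had it well above background, so it had no ratio, and its spot errors reached 1.44. The negative control spots had medians of -6.79, -7.02, -7.21 and -6.73 on the same arrays. Of 6 dendritic cell markers, 1 to 3 were well above background on each array, and their summed level was -2.76 in the control, -1.69 at 4 h, -2.89 at 20 h and -2.57 at 32 h. *Flt3* was detected on all 4 arrays, *Itgax* and *Zbtb46* at 4 h only and *Irf8* at 32 h only, while *Xcr1* and *Clec9a* were detected on none.

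The members were then read against all probes. At 4 h, 8 of the 9 probes had a ratio, 7 of them measured and that of *Fos* a bound. 2 members exceeded the control by 2-fold or more and 0 were below it by that much. Of all 23813 probes with a ratio, 11.2% exceeded the control by 2-fold or more and 8.18% were below it by that much. The median log2 ratio over the members was 0.75, or 0.67 over those measured, beside 0.22 over all probes. 7 of the 8 ratios were above 0, with *Jun* the exception. Most of all probes also lay above 0, as their median of 0.22 shows. *Fosl1* too fell below 0 with median, quantile or spike-in scaling and without scaling. The scaling between arrays moved the median of all probes by up to -0.40 (spike-in scaling), and the median of the members then became 0.36. Over the 5 other scalings *Fos* lay at 1.61 to 1.88 and *Fosb* at 1.89 to 2.22, whereas the other members stayed under the 2-fold threshold.

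Within the distribution at 4 h, 1.71% of all probes lay as high as *Fosb* or higher and 2.45% as high as the bound of *Fos*. *Junb* and *Jund* had 15.1% and 15.2% of the probes at or above them. *Fosl1* lay near the middle, with 50.8%, and *Jun* lower, with 64.1%. The family thus spread over the upper and middle part of the distribution, and none lay in its lower tail.

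**Figure D3:**
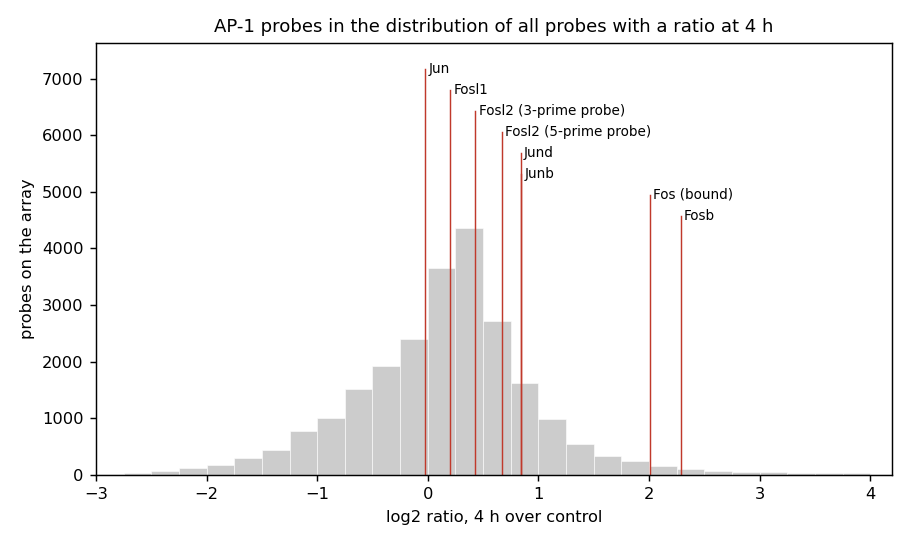
Number of probes (y axis, bars) by log2 ratio at 4 h over the control (x axis, bins of 0.25 log2 units) for all probes with a ratio, drawn from -3 to 4.2. Lines mark the 8 AP-1 probes with a ratio, the line of *Fos* being a bound. *Fosb* at 2.29 and *Fos* at 2.01 lie beyond the bulk of the probes, and *Jun* at -0.02 lies left of the peak.

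At 20 h, 7 member probes had a ratio, 0 of them at least 2-fold higher and 0 at least 2-fold lower, beside 1.37% and 3.35% of all 21990 probes. *Fosl1* came closest to the threshold, with 3.52% of the probes as low or lower, and the 3-prime probe of *Fosl2* had 3.05% as high or higher. The median of the members was 0.12 and that of all probes 0.0024. Under quantile normalization *Fosl1* passed the threshold at -1.01, and without scaling the 3-prime probe of *Fosl2* did, at 1.04.

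At 32 h, the same counts were 0 and 0 of 7, beside 2.07% and 2.59% of all 21843 probes, with a member median of 0.13 and an all-probe median of -0.01. Between 20 h and 32 h no member differed by more than 2 times the spot error, except *Fosl1* under quantile normalization, at -0.41. The log2 ratio of 20 h over 32 h ran from -0.40 ± 0.20 for *Fosl1* to 0.26 ± 0.22 for the 5-prime probe of *Fosl2*. None of the 7 was 2-fold apart in either direction, beside 0.902% of all probes at least 2-fold higher at 20 h and 1.93% at least 2-fold lower.

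**Figure D4:**
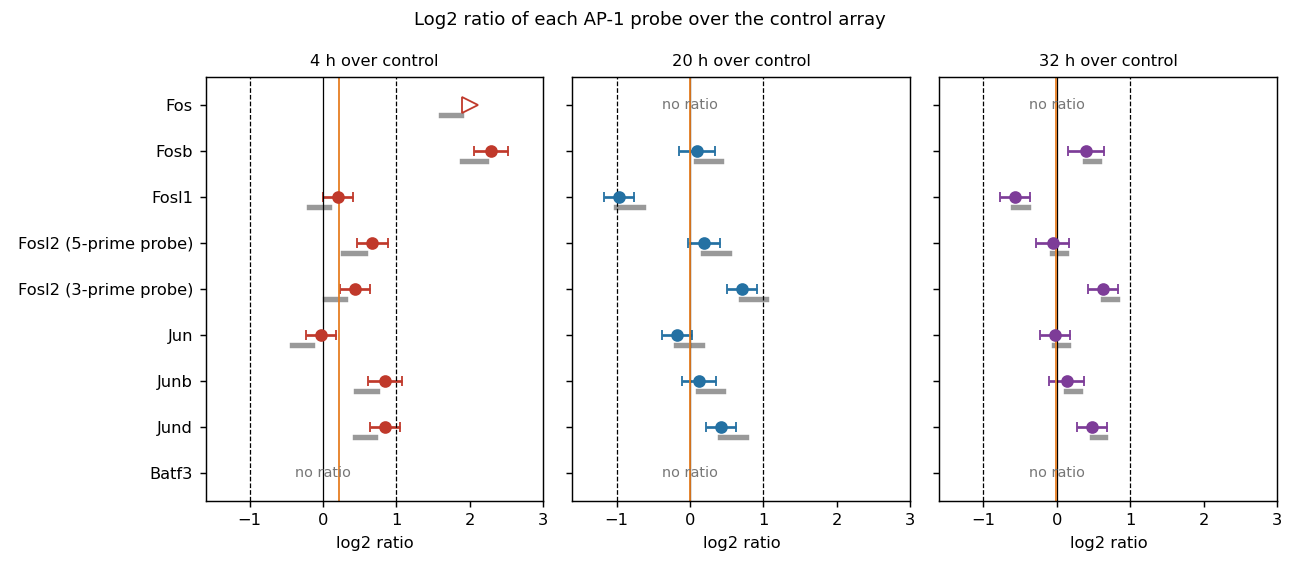
Log2 ratio over the control (x axis) of each AP-1 probe (rows) at 4 h, 20 h and 32 h. Points carry the spot error, the open triangle is the bound of *Fos*, and grey bars span the ratio under the 5 other scalings. Dashed lines mark 2-fold and the orange line the median of all probes. Only *Fos* and *Fosb*, both at 4 h, lie beyond 2-fold, and *Fosl1* lies at -0.97 at 20 h.

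By the distance between time courses over the 4 arrays, *Fosb* was the only member for which likeness could be taken, since it alone had a measured 2-fold change. Of 19697 probes compared, those of *Isg20*, *Tmem116* and *Sesn2* were nearest, at a distance of 0.094, 0.18 and 0.22 log2 units. Their log2 ratios at 4 h were 2.25, 2.36 and 2.15, and at 20 h 0.12, 0.23 and 0.12. The distance of each rests on 4 arrays and is below the spot error of a single *Fosb* ratio, 0.23 to 0.25. Which of the many probes is nearest is thus not settled.

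Genes that lie close to the members were read for the same comparison. Within 10 kb of *Fosl1*, *Fibp* had a log2 ratio of -1.37 ± 0.20 and *Ccdc85b* -1.01 ± 0.37 at 4 h, while *Fosl1* had 0.21. *Ctsw*, also near *Fosl1*, was higher by a bound of 0.70. *Prdx2*, near *Junb*, had -0.05 ± 0.20. The transcript ENSMUST00000116172, whose probe lies 576 bases from that of *Jund*, had 0.998 ± 0.37. Its control level, -4.67, lay close to the lowest detected on that array, -4.76. *Ccdc85b* was likewise close at 4 h, with -4.58 beside -4.94. *Rtn2*, near *Fosb*, was well above background on none of the arrays.

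The rest of the pathway was described by 5 lists with 64 genes in all. Each list is to be read beside all probes at 4 h. Of these, 11.2% were at least 2-fold higher and 8.18% at least 2-fold lower, with a median of 0.22. Proteins that can pair with Fos or Jun had 7 of 10 genes with a ratio at 4 h, 1 at least 2-fold higher and 1 at least 2-fold lower, with a median of 0.31. The higher gene was *Atf4*, which drives the amino acid and ER stress response, at 1.68 ± 0.20 and 1.83 ± 0.20 with its 2 probes. At 20 h and 32 h it had -0.07 and -0.04 with the brighter probe. The lower gene was *Maf*, which encodes a leucine zipper protein, and it passed by a bound of -1.23. With normexp correction *Maf* had -0.44 and did not pass. *Atf3*, *Batf* and *Nrl* had no ratio. With the less strict detection flag all 10 genes had one and 3 were at least 2-fold higher, *Atf4*, *Atf3* with 1.65 and *Nrl* with 1.95. The shares of all probes above do not apply to that flag.

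Of 22 MAP kinases and kinases that act on them, which relay stress to AP-1, 20 had a ratio at 4 h with a median of 0.03. *Mapk12*, a p38 kinase, was higher with 2.26 ± 0.30, and *Map2k6*, which activates p38 kinases, was lower with -1.22 ± 0.20. *Map2k6* also had -1.08 ± 0.20 at 20 h and -1.12 ± 0.21 at 32 h, whereas *Mapk12* had -0.07 ± 0.34 and 0.07 ± 0.37. No other gene of the list was 2-fold apart at 4 h, but with median or spike-in scaling 4 genes were at least 2-fold lower, *Map2k6* included. These scalings also lowered the 4 h median of all probes, to -0.14 and -0.18. The share of all probes at least 2-fold lower under them is not given here, so the 4 genes have nothing to be read beside.

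Factors that act on the *Fos* and *Jun* promoters had 8 of 9 genes with a ratio and a median of 0.37. *Elk3*, a partner of serum response factor that represses *Fos* until it is phosphorylated, was lower at 4 h, with -1.82, -1.50 and -1.02 over its 3 probes. *Creb1*, which binds cAMP response elements, had 1.29 ± 0.22 with 1 probe and 0.08 ± 0.32 with another, so that its probes disagreed. The first was under 2-fold with median and spike-in scaling. Genes were counted by their brightest probe, and the probes of some others disagreed too. The brightest and the highest probe had 0.42 and 1.79 for *Mef2d*, 0.41 and 1.25 for *Elk4*, and 0.20 and 1.20 for *Mef2a*. Among proteins that can pair with Fos or Jun, *Atf2* had -0.27 and 1.23. Of 7 genes that govern the turnover or activity of Fos and Jun proteins, *Det1*, part of a ubiquitin ligase for Jun, was lower with -1.14 ± 0.21 and 0 were at least 2-fold higher. With normexp correction *Det1* was no longer 2-fold lower. The median of that list was 0.29. At 4 h the medians of all 5 lists, like that of all probes, turned below 0 with spike-in scaling.

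Genes known to be driven by AP-1 included the largest single ratio of the 5 lists at 4 h, and most of them were below the control later. At 4 h all 15 had a ratio, 4 at least 2-fold higher and 1 at least 2-fold lower, with a median of 0.37. The shares of all probes were 11.2% and 8.18%, and 3 target genes were higher with median, quantile, spike-in or no scaling and with normexp correction. *Ptgs2*, which encodes the inducible cyclooxygenase COX-2, had 3.73 ± 0.06 and *Il6*, an inflammatory cytokine, 3.34 ± 0.20. *Plaur*, the urokinase receptor, had 1.55 ± 0.20, and the collagenase gene *Mmp13* was higher by a bound of 1.26. *Ccnd1*, which encodes cyclin D1, was lower with -1.49 ± 0.20.

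At 20 h, 9 of the 14 target genes with a ratio lay below the control by 2-fold or more and 0 above it, with a median of -1.17. At 32 h 8 of 14 were at least 2-fold lower and 0 higher, with a median of -1.21, and both times share the same control array. The shares of all probes at least 2-fold lower were the 3.35% and 2.59% given above. The list was chosen with earlier results of these data known, so its counts beside these shares are a description and no test. *Plaur* had -1.17 ± 0.20 at 20 h and *Ccnd1* -1.17 ± 0.20, while *Ptgs2* had -0.28 ± 0.07 and *Il6* 0.08 ± 0.20. Of the genes outside the naming rule, picked after their values were seen, the stromelysin gene *Mmp10* was lowest with -2.62 ± 0.22 at 20 h and -3.12 ± 0.27 at 32 h. *Mmp3*, another stromelysin gene, had -1.53 and -1.84, and *Hbegf*, a growth factor of the EGF family, -1.79 and -1.55.

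The count of lower target genes was 5 to 10 at 20 h and 7 or 8 at 32 h over the other settings, and the median stayed at -0.84 or below at 20 h and -0.995 or below at 32 h. The low count of 5 came without scaling. These genes have many regulators besides AP-1, and whether their course is tied to *Fosl1* or to any other member was not tested. Among the members, *Fosl1* alone was below the control beyond 2 times its spot error at both late times, though not at 32 h without scaling.

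**Figure D5:**
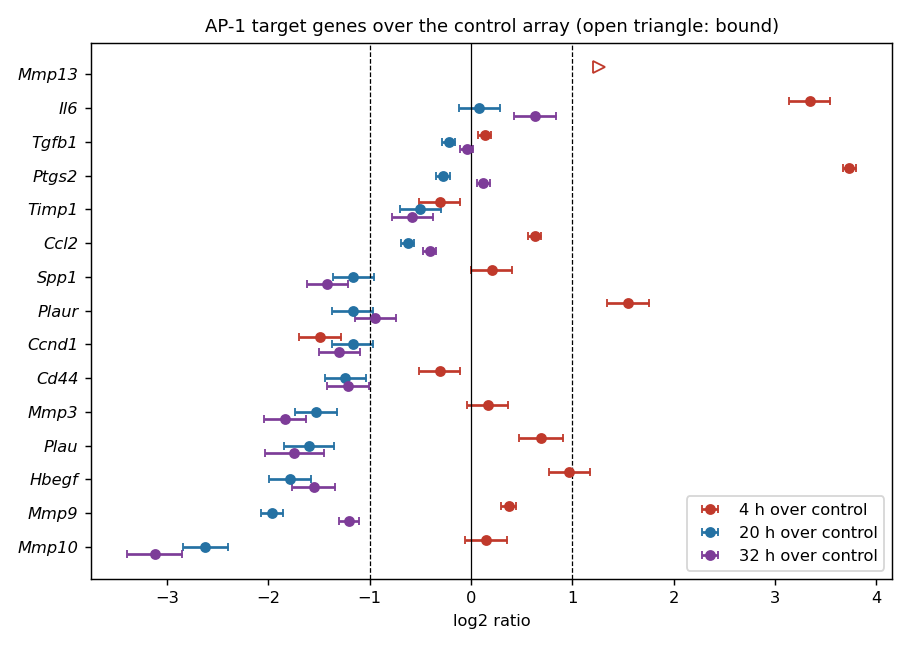
Log2 ratio over the control (x axis) of 15 genes known to be driven by AP-1 (rows, ordered by the ratio at 20 h) at 4 h, 20 h and 32 h. Bars are spot errors, dashed lines mark 2-fold, and the open triangle is the bound of *Mmp13*, which had no ratio at the late times. *Ptgs2* and *Il6* lie beyond 3 at 4 h, and 9 of 14 genes lie below -1 at 20 h.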

How the data were processed

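Gene expression was measured on 4 one-color Agilent mouse arrays, 1 per condition, in NIH-3T3:Per2-Luc cells. Per spot, the authors deposited raw and background-subtracted intensities of Agilent Feature Extraction 10.7.3.1, with flags for outliers, saturation and signals well above background. A deposited table holds the same intensity signals divided by 1 constant per array, which was checked over 44397 spots per array. No other normalization was found in it.

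Here, the log2 signal was averaged over the unflagged spots of each of 39429 non-control probes, and each array's 75th percentile was then taken off. Detection of a probe required 50% or more of its spots to be flagged as well above background. Ratios between 2 arrays that both detected a probe are measured. Where 1 of them did, the ratio is a bound, taken of the bright signal to whichever was higher on the dim array, the probe's signal or the lowest detected one. Other probes had no ratio. Spot errors were propagated from the scanner software. A pathway gene was read with its brightest probe. Some genes of the lists are not reported here.

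The members and lists were chosen with earlier results of these data known. All member probes were named, and of each of the 5 pathway lists up to 3 genes with the largest measured ratio each way at 4 h, among those at least 2-fold changed. Named outside this rule were *Maf* and *Mmp13*, which had bounds, and *Atf3*, *Batf* and *Nrl*, which had no ratio. *Mmp10*, *Mmp3* and *Hbegf* were so too, as were *Mef2d*, *Elk4*, *Mef2a* and *Atf2*, whose probes disagreed. Likeness was the distance between a member's ratios and those of other probes. The methods of the study name SAM (two-class paired), which was not run with 1 array per condition. Promoter sequences came from RefSeq (GRCm38.p6) and probe positions from the array annotation (mm9), and coordinates of the builds were not mixed. No annotation of exons on mm9 was used here.

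Alternatives were 5 scalings (median, quantile, 75th percentile of probes detected on all arrays, the 7 spike-in probes detected on all arrays, none), no detection filter, background correction by normexp (offset 50) with limma 3.58.1 under R 4.3.3, another detection flag, flagged spots kept, the deposited table, and a threshold of 1.5-fold. Their use for the pathway lists was added after seeing the data. The steps were tested on simulated data. Calculations used Python 3.11.15, numpy 2.4.6, pandas 2.3.3 and matplotlib 3.10.9.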

Additional observations from a re-analysis of the deposited data

How the results depend on the processing

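Of 132 counts and medians over the AP-1 probes under 11 alternatives, 122 kept their value within the limits used (a count within 1.5 times, a median within the spot error). Medians close to 0 changed sign, at 20 h to -0.01 with normexp correction, and for 20 h over 32 h to 0.02 by the median, 0.02 by the spike-in probes and 0.10 unscaled. At 4 h the median log2 ratio became 0.36 when arrays were scaled by the spike-in probes, 0.39 by the median and 0.47 unscaled. At 20 h quantile normalization gave 1 probe at least 2-fold lower, and no scaling gave 1 at least 2-fold higher and a median of 0.45. The 1.5-fold threshold gave 5 probes higher at 4 h, 1 higher and 1 lower at 20 h, and 1 higher at 32 h. The lowest of the 5 at 4 h, the 5-prime probe of *Fosl2*, had 20.9% of all probes at or above it. At 20 h the 3-prime probe of *Fosl2* had 3.05% at or above it and *Fosl1* 3.52% at or below it. At 32 h the 3-prime probe had 5.09% at or above it. The shares of all probes beyond 1.5-fold are not given here. Of 290 values of single probes, 251 moved by less than the spot error, 39 moved by more, 19 changed sign and 2 changed their side of the 2-fold threshold. *Fos* was lowest at 4 h with normexp correction, 1.14, and highest without a detection filter, 2.66. Of 750 values for the pathway lists, 87 moved, and the count of lower target genes at 20 h became 5 without scaling. No paired analysis was possible because each condition had 1 array. Spot errors cover the spot and not the culture, and a signal not well above background, as for *Batf3* and for *Fos* outside 4 h, has no measured ratio.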
